A study of Mus musculus with 27 samples.

Results

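RNA-seq of the colonic epithelium was compared between 3 mice gavaged with 1 μg/kg TCDD (mice 41, 43 and 44) and 3 mice given sesame oil vehicle (mice 2, 3 and 4). These are 6 of the 27 mice sequenced, and each mouse was placed in its group by its labelled dose. The comparison itself was chosen with earlier results of these data known. All were male C57BL/6 mice, 28 days old at the start and 56 days old at the end, that received TCDD in sesame oil, or the oil alone, by 7 gavages, 1 every 4 days, over 28 days. The RNA came from scrapings of the colon lining, which hold several cell types, so a lower level from fewer cells of a type cannot be told apart from less RNA per cell. Further baselines were the 12 mice at 0.01, 0.03, 0.1 and 0.3 μg/kg and the 9 mice at 3, 10 and 30 μg/kg, with 3 mice at each dose.

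TCDD, the most potent of the dioxins, binds the aryl hydrocarbon receptor (AhR), which enters the nucleus, pairs with ARNT and binds dioxin response elements beside genes of xenobiotic metabolism such as Cyp1a1. The circadian clock is a feedback loop in which the activators CLOCK or NPAS2 with BMAL1 (gene Arntl) bind E-boxes and switch on the repressors PER, CRY and REV-ERB (genes Nr1d1 and Nr1d2). Output factors such as DBP, TEF, HLF and their opponent NFIL3 carry the rhythm to other genes, and in the gut these genes cycle over the day. Per the study's methods, tissues of all groups were taken in the first hours of the light phase, and the hour of each mouse within that window is not given in the sources used here.

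Counts on genes ranged from 9305441 to 12566466 per mouse at 1 μg/kg and from 9416898 to 10423536 in vehicle. The share of reads assigned to no feature was 31.4 to 32.6% at 1 μg/kg and 31.6 to 32.1% in vehicle. The 9 epithelium markers were well counted, with a summed level of 8297 to 9288 CPM (counts scaled to library size) in vehicle and 9727 to 10680 CPM at 1 μg/kg, and the skeletal muscle and red blood cell markers were too low to test. The index barcodes were used over again from mouse 43 on, so mouse 41 shares its index set with vehicle and all 4 lower doses, while mice 43 and 44 share theirs with the 3 higher doses. Mouse 14, at 0.01 μg/kg, stood apart from its group in its clock genes. The genes named below for their change against the lower doses are given with and without it, apart from Xdh.

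At 1 μg/kg 33 of 16496 genes tested were called against vehicle (0.2%), with 23 higher (0.139%) and 10 lower (0.0606%). Of these, 11 belong to the 22 tested genes of 3 clock lists, 1 is the AhR target Cyp1a1, and 21 belong to neither. A gene was called at a fold change of at least 1.5 and an adjusted p under 0.05, by Benjamini-Hochberg, from the quasi-likelihood test of edgeR (edgeR adjusted p from here on). Without adjustment, 9.8% of the genes had a p under 0.05. Changes of at least 4-fold were found for 6 genes, namely Cyp1a1, Dbp, Ciart, Tef, Nr1d1 and Nfil3, while 16 genes lay between 1.5-fold and 2-fold. The mice of the 2 groups did not overlap for any of the 33 genes, as follows from choosing them on this contrast, and groups did not overlap for 16.2% of all genes tested. The number called depended on single mice, with 3, 19 and 7 genes called without vehicle mouse 2, 3 or 4, and 9, 26 and 11 without mouse 41, 43 or 44.

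Cyp1a1, a phase I monooxygenase gene and a classical AhR target, had the largest fitted change. The gene lies on the plus strand of chromosome 9 from 57687928 to 57703824 (GENCODE M21, GRCm38). It had 1, 0 and 1 reads in vehicle mice 2, 3 and 4, and 74, 66 and 39 reads in mice 41, 43 and 44. All 3 treated mice were thus far above all vehicle mice. The summed counts of 179 against 2 gave a ratio of 84.2 after scaling to library size, with a 95% counting interval of 23.0 to 701. The fitted log2 fold change was 6.19 ± 0.81 (SE, n = 3 and 3, edgeR adjusted p = 0.00147), a value that depends on the prior count because vehicle is near 0. Cyp1a1 was called by DESeq2 but not by limma voom (5.72, limma adjusted p = 0.214). Levels at 1 μg/kg were 5.86, 7.33 and 3.87 CPM, and the 9 mice at higher doses had 50.6 to 2427 CPM. So 1 μg/kg lay above the 12 mice at lower doses, whose highest level was 0.518 CPM, and below every mouse at higher doses.

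**Figure D1:**
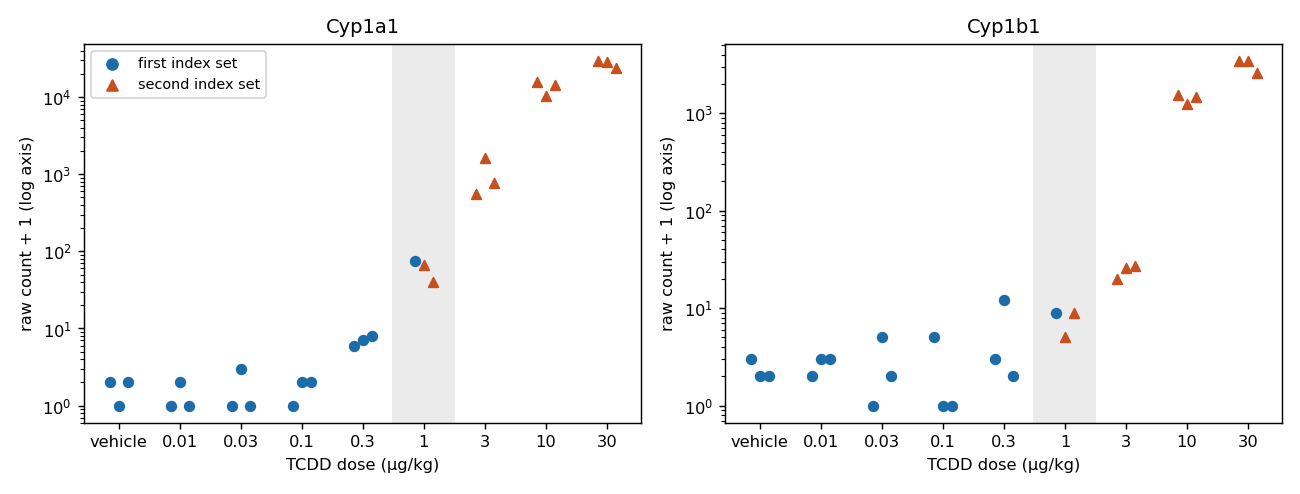
Raw read counts of Cyp1a1 and Cyp1b1 plus 1, on log axes, against TCDD dose, with 1 point per mouse, circles for the first index set, triangles for the second and 1 μg/kg shaded. Cyp1a1 had 39 to 74 reads at 1 μg/kg, between the 5 to 7 reads at 0.3 μg/kg and the 550 to 1630 reads at 3 μg/kg.

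The promoter window of Cyp1a1 (RefSeq, GRCm38.p6, chr9:57697363-57697662, plus strand, 250 bases before to 50 after the start of transcription) is shown because it holds the core of the dioxin response element. The core GCGTG was searched on both strands and is in capitals. The core starts 54 bases before the RefSeq start of transcription. That start lies inside the GENCODE span given above, not at its first base.
Cyp1a1: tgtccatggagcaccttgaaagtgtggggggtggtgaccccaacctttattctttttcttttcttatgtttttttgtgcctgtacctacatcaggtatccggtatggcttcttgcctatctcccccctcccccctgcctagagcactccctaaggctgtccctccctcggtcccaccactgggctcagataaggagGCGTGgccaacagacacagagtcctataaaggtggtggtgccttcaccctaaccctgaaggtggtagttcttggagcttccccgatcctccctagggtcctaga
The core is short and common, and 32.4% of 32851 windows of this length hold it.

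None of the other AhR target genes was called at this dose. Of 14 listed genes 11 were tested, Cyp1a1 alone was called, 7 were higher and 4 lower, and their median log2 fold change was 0.27 against -0.0095 for all genes. Cyp1b1, another AhR-induced monooxygenase, had 0.197, 0.105 and 0.0982 CPM in vehicle and 0.634, 0.444 and 0.795 CPM in mice 41, 43 and 44. The groups did not overlap, but at these low levels the log2 fold change of 2.15 ± 0.81 (SE) was not called (edgeR adjusted p = 0.343). Ahrr, the AhR repressor, had a log2 fold change of 0.30 ± 0.30, Tiparp, a TCDD-induced poly-ADP-ribose polymerase, -0.23 ± 0.16, and Nqo1, a quinone reductase, 0.04 ± 0.23 (SE, edgeR adjusted p of 0.667 or more). Xdh, Gsta1 and Aldh1a3 had values of 0.33 ± 0.13, 0.27 ± 0.30 and 0.45 ± 0.44 (SE), and none of these was called. For Xdh the groups did not overlap. Against the lower doses, with mouse 14 among them, Xdh had 0.54 (edgeR adjusted p = 0.00602), short of the 1.5-fold cut. Of the 11 tested AhR targets, 3 had an unadjusted p under 0.05, against 9.8% of all genes tested. The groups did not overlap for 3 of the 11, against 16.2% of all genes. Ugt1a6a, Ugt1a6b and Ugt1a7c had values of -0.05, -0.08 and -0.07, but these genes share exons in 1 cluster, so their separate counts are uncertain. Cyp1a2, Aldh3a1 and Gsta2 had 0 to 2 reads per mouse in both groups and were not tested. The receptor and its partners (7 genes) and the 14 NRF2 antioxidant genes had 0 called members by edgeR or DESeq2, 0 and 2 members at an unadjusted p under 0.05, and medians of 0.05 and -0.13.

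Ahrr was 1 of 4 genes that differed between 3 and 1 μg/kg (0.0242% of genes tested), higher at 3 μg/kg by a log2 value of 1.43 ± 0.24 (SE, edgeR adjusted p = 0.0296). Cyp1a1 was higher again at 3 μg/kg, by 3.87 ± 0.31. The remaining calls were Acta1, a muscle actin, at 1.36, and Pcdh17, a protocadherin, at -1.50. Of the 33 genes called at 1 μg/kg, 1 was called at 3 against 1 μg/kg and 1 at 30 against 1 μg/kg, and in both cases it was Cyp1a1, although 293 genes (1.78%) were called at 30 against 1 μg/kg.

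Clock genes were called in both directions, at 11 of 22 by edgeR against 0.2% of all genes tested. Among the 10 clock repressors, 5 rose, 1 fell and 4 were not called, with a median log2 fold change of 1.77 against -0.0095 for all genes. Among the 5 tested clock activators, 2 fell and 3 were not called (median -0.39). Among the 7 clock output genes, 2 rose, 1 fell and 4 were not called (median 1.17). DESeq2 called 9 of the repressors, 2 of the activators and 5 of the output genes, adding Per2, Bhlhe40, Bhlhe41, Hlf and Usp2. Limma voom called 7 of the 22 and did not call Ciart, Arntl, Dbp and Nfil3. Over all 16496 genes DESeq2 called 73 and limma voom 21. The groups did not overlap for 10 of 10 repressors, 3 of 5 activators and 5 of 7 output genes, against 16.2% of all genes tested. Of the 11 clock genes called by edgeR, 1, 5 and 3 were called without vehicle mouse 2, 3 or 4, and 5, 9 and 5 without mouse 41, 43 or 44. Nfil3 was the 1 left without vehicle mouse 2. With a term for the index set 4 of the 11 were called, namely Dbp, Tef, Nr1d1 and Nr1d2.

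**Figure D2:**
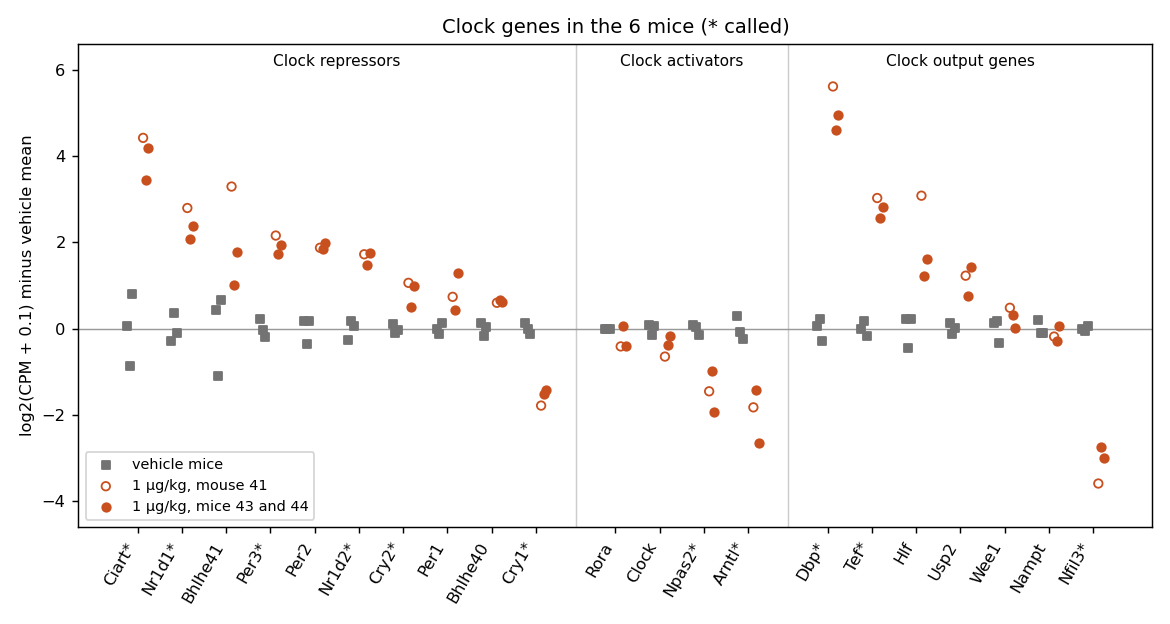
Levels of the clock genes in the 6 mice, as log2(CPM + 0.1) minus the vehicle mean, by list, with squares for vehicle, open circles for mouse 41, filled circles for mice 43 and 44, and asterisks for called genes. Dbp, Ciart, Tef and Nr1d1 lie far above vehicle in all 3 treated mice, while Nfil3, Arntl, Cry1 and Npas2 lie below it.

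Dbp, a transcription factor that activates through D-boxes, had 1.77, 2.00 and 1.37 CPM in vehicle and 88.0, 43.9 and 55.3 CPM in mice 41, 43 and 44. Every treated mouse was far above every vehicle mouse, and mouse 41 was highest. The change was 36.4-fold (log2 fold change 5.18 ± 0.84, SE, edgeR adjusted p = 0.00628). Tef, a related activator, had 19.4, 22.1 and 17.6 CPM in vehicle and 160.9, 117 and 138.6 CPM at 1 μg/kg. It rose 7.06-fold (log2 fold change 2.82 ± 0.46, edgeR adjusted p = 0.00702) with the groups well apart. Hlf, the remaining factor of this family, had 0.394, 0.211 and 0.393 CPM in vehicle and 3.49, 0.888 and 1.19 CPM at 1 μg/kg. Its log2 fold change of 2.48 ± 0.62 was not called by edgeR (adjusted p = 0.107) but was by DESeq2, and mouse 41 was well above the other treated mice.

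Nfil3, which represses through the same D-boxes (chromosome 13, 52967209 to 52981073, minus strand), had 12.4, 12.1 and 13.1 CPM in vehicle and 0.950, 1.78 and 1.49 CPM in mice 41, 43 and 44. Vehicle mice were close together and every treated mouse was far below them. The change was a 9.05-fold fall (log2 fold change -3.18 ± 0.47, SE, edgeR adjusted p = 0.00364). Of the other output genes, Usp2, a deubiquitinase, had a log2 fold change of 1.17 ± 0.29, Wee1, a mitotic kinase, 0.28 ± 0.15, and Nampt, an enzyme of NAD synthesis, -0.13 ± 0.10. None was called by edgeR, while DESeq2 called Usp2.

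Ciart, a repressor of CLOCK and BMAL1, had 0.492, 0.211 and 0.884 CPM in vehicle and 12.0, 6.11 and 10.2 CPM in mice 41, 43 and 44. The treated mice were all higher, with a 17.5-fold change (log2 fold change 4.13 ± 0.79, edgeR adjusted p = 0.0223). Nr1d1, encoding REV-ERBα, which represses Arntl, had 25.3, 39.8 and 28.7 CPM in vehicle and 214, 130.4 and 159 CPM at 1 μg/kg. It rose 5.38-fold (log2 fold change 2.43 ± 0.37, edgeR adjusted p = 0.00364). Nr1d2, encoding REV-ERBβ, had 36.0, 48.7 and 45.1 CPM in vehicle and 142, 119.7 and 145 CPM at 1 μg/kg, a 3.14-fold rise (log2 fold change 1.65 ± 0.25). For both genes the lowest treated mouse was mouse 43, and it was still above the highest vehicle mouse. Nr1d1 overlaps Thra, Dbp overlaps Sphk2, and Ciart overlaps C920021L13Rik on the opposite strand. The use of strand in counting is not given in the sources used here, so reads of such partners cannot be told apart.

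Per3, a period gene, had 34.04, 28.9 and 25.5 CPM in vehicle and 131.2, 96.9 and 113 CPM at 1 μg/kg, a 3.86-fold rise (log2 fold change 1.95 ± 0.35, SE, edgeR adjusted p = 0.0134). Its gene overlaps Camta1 on the same strand. Per2 had 17.1, 11.8 and 17.3 CPM in vehicle and 56.0, 55.1 and 60.8 CPM at 1 μg/kg. The groups were well apart and the log2 fold change was 1.89 ± 0.42, but the edgeR adjusted p of 0.0550 missed the threshold, while DESeq2 called it. Per1 had a log2 fold change of 0.87 ± 0.34, with 105.3 CPM in mouse 44 and 57.3 CPM in mouse 43, and was not called. Bhlhe40 and Bhlhe41, repressors that bind E-boxes, had values of 0.62 ± 0.14 and 2.42 ± 0.63 and were called by DESeq2 but not by edgeR (edgeR adjusted p = 0.0676 and 0.113).

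The cryptochromes, which block CLOCK and BMAL1, went opposite ways. Cry2 had 34.2, 29.6 and 30.9 CPM in vehicle and 66.1, 44.9 and 62.5 CPM in mice 41, 43 and 44, a 1.83-fold rise (log2 fold change 0.87 ± 0.16, edgeR adjusted p = 0.0191). Cry1 had 45.5, 41 and 37.9 CPM in vehicle and 12.0, 14.4 and 15.3 CPM at 1 μg/kg, a 2.99-fold fall (log2 fold change -1.58 ± 0.31, edgeR adjusted p = 0.0275). For neither gene did a treated mouse reach the vehicle range.

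Arntl had 79.1, 60.8 and 54.7 CPM in vehicle and 18.1, 23.8 and 10.1 CPM at 1 μg/kg, a 3.75-fold fall (log2 fold change -1.91 ± 0.40, SE, edgeR adjusted p = 0.0352). Npas2, the partner that can replace CLOCK, had 89.3, 86.4 and 75.3 CPM in vehicle and 30.5, 42.0 and 21.8 CPM at 1 μg/kg, a 2.67-fold fall (log2 fold change -1.42 ± 0.29). In both, mouse 44 was lowest and mouse 43 highest of the treated mice. Clock had 166.7, 140.7 and 162.5 CPM in vehicle and 99.9, 121 and 138.4 CPM at 1 μg/kg, and its log2 fold change of -0.39 ± 0.16 was not called (edgeR adjusted p = 0.394). The nuclear receptor gene Rora, whose product activates Arntl, had a value of -0.24 ± 0.28 and was not called.

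Cipc, which encodes an inhibitor of CLOCK and was in no list, also rose. It had 149.9, 170.3 and 160.6 CPM in vehicle and 299, 248.7 and 312 CPM at 1 μg/kg, a 1.79-fold change (log2 fold change 0.84 ± 0.15, edgeR adjusted p = 0.0107). The 2 groups were well apart.

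The promoter windows of 5 called clock genes and of Lonrf3, a RING finger gene that fell, are printed to show which of them hold the E-box that CLOCK and BMAL1 bind. They are RefSeq windows on GRCm38.p6 from 250 bases before to 50 bases after the start of transcription, read 5′ to 3′ along the gene. Capitals mark the E-box CACGTG, the D-box TTATGNAA, and the AhR core GCGTG, which reads CACGC when it lies on the other strand. The windows are those of Dbp (chr7:45704997-45705296, plus strand), Ciart (chr3:95882179-95882478, minus strand), Tef (chr15:81802423-81802722, plus strand), Per3 (chr4:151044616-151044915, minus strand), Cry1 (chr10:85185005-85185304, minus strand) and Lonrf3 (chrX:36328159-36328458, plus strand).
Dbp: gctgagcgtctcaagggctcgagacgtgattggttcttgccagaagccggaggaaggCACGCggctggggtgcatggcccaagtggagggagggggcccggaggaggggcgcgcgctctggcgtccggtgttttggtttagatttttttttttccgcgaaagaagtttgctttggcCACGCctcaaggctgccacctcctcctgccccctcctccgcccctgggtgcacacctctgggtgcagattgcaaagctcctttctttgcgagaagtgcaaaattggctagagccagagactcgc
Ciart: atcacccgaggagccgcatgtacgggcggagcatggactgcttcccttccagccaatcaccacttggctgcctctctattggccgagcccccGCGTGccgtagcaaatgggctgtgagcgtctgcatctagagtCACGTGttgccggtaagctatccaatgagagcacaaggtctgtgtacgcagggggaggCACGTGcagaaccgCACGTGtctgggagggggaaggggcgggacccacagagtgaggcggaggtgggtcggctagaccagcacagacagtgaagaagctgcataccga
Tef: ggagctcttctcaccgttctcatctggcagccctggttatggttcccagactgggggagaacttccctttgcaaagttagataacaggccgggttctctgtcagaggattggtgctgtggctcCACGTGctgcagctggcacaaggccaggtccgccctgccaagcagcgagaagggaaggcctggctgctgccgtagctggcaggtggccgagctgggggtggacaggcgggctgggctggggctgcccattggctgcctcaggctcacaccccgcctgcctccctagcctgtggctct
Per3: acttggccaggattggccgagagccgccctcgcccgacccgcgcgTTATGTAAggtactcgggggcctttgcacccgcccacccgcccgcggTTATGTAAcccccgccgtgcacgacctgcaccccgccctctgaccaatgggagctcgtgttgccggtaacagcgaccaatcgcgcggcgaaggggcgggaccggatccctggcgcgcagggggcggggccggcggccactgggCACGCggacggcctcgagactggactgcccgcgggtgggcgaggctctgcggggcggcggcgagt
Cry1: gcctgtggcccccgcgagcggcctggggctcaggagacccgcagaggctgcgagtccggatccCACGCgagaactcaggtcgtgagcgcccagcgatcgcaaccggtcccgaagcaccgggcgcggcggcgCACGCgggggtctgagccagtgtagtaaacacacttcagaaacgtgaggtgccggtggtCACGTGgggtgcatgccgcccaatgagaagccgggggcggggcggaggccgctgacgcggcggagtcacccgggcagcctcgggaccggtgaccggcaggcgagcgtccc
Lonrf3: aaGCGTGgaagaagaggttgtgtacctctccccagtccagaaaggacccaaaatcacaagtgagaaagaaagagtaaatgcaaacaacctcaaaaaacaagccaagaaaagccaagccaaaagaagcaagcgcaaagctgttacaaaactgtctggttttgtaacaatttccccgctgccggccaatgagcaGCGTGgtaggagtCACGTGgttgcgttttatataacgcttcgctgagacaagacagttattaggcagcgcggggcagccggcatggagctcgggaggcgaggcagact
The window of Ciart holds 3 E-boxes, and those of Tef, Cry1 and Lonrf3 hold 1 each, so the motif stands beside genes that rose and genes that fell. Per3 holds 2 D-boxes and no E-box, and Dbp holds 2 AhR cores and no E-box in this window. The windows of the called clock genes not printed, Nr1d1, Nr1d2, Cry2, Npas2, Arntl and Nfil3, hold no E-box either.

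Of the 33 called genes 25 had a window. An E-box was in 5 of these (20%), namely Lonrf3, Cry1, Tef, Lnx1 and Ciart, against 7.15% of all windows. The AhR core was in 15 (60%) against 32.4% of all windows, and the D-box in 1 (4%) against 3.38%. An E-box and an AhR core shared bases in 0.0365% of all windows. These are matches of letters and say nothing of binding.

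To follow the clock genes in each mouse, the mean log2 CPM of the 7 called clock genes that rose was set against that of the 4 that fell, and the difference is called the clock difference. The genes were chosen on these 6 mice, so their values are a description. In vehicle the clock difference was -1.96, -1.78 and -1.70 in mice 2, 3 and 4, and at 1 μg/kg it was 3.26, 2.16 and 3.10 in mice 41, 43 and 44. The other mice were not in this contrast, but they entered the same fit and its estimate of spread, so their values are a description too. They divided between these levels. At 3, 10 and 30 μg/kg the 9 mice had 2.50 to 3.26, and at 0.03 and 0.1 μg/kg the 6 mice had -1.72 to -0.98. At 0.3 μg/kg the 3 mice had -0.20, 0.64 and 0.30, between the groups. At 0.01 μg/kg, however, mouse 14 had 2.72, within the range at 1 μg/kg, while the other mice of its group had -2.07 and -1.20.

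**Figure D3:**
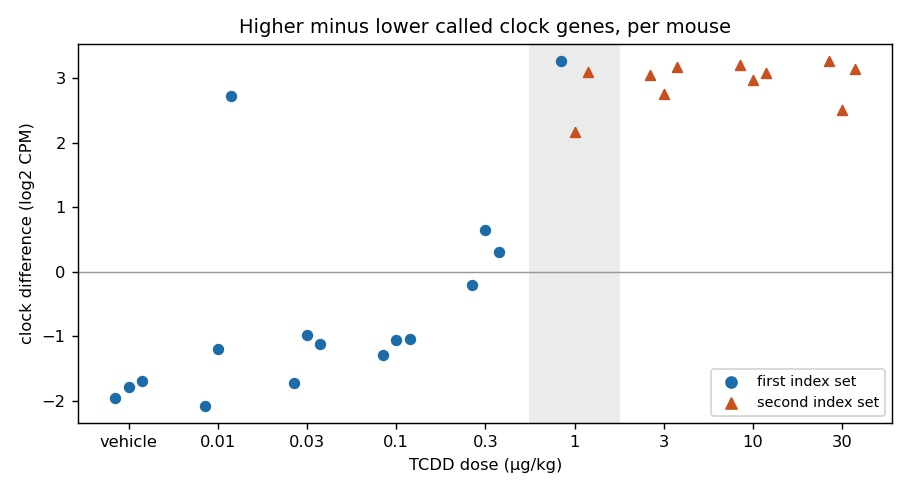
Clock difference of each of the 27 mice (mean log2 CPM of 7 clock genes minus that of 4) against TCDD dose, with circles for the first index set, triangles for the second and 1 μg/kg shaded. Vehicle mice lie between -1.96 and -1.70 and the 1 μg/kg mice between 2.16 and 3.26, and mouse 14 at 0.01 μg/kg has 2.72.

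In mouse 14 Dbp had 632 reads and Tef had 1306, and Ciart had 10.7 CPM, Nfil3 2.09, Cry1 14.9 and Arntl 11.8. Apart from Nfil3, slightly higher, their CPM lay within the range of the 1 μg/kg mice. Cyp1a1, by contrast, had 0 reads in mouse 14, so the clock genes and Cyp1a1 did not move together in that mouse. Of the 33 called genes, 13 lay outside the range of all 15 mice at vehicle to 0.3 μg/kg (10 above, 3 below, against 1.53% of all genes), and without mouse 14 this number was 31 (21 above, 10 below, against 1.99% of all genes).

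The clock and AhR lists held none of the other 21 called genes, of which 15 rose and 6 fell. Tns4, encoding a tensin of focal adhesions, had 341.8, 303.7 and 289 CPM in vehicle and 786, 526 and 583 CPM in mice 41, 43 and 44. It rose 2.03-fold (log2 fold change 1.02 ± 0.17, SE, edgeR adjusted p = 0.00742), and all treated mice were above all 15 mice at lower doses. Spint1, encoding an inhibitor of membrane serine proteases (chromosome 2, 119237362 to 119249527, plus strand), had 205.5, 227.5 and 213 CPM in vehicle and 359.8, 339 and 341.7 CPM at 1 μg/kg. Both groups were tight and apart (log2 fold change 0.69 ± 0.10, edgeR adjusted p = 0.00272). Spint1 was the 1 gene of the 33 that was called in each of 14 alternative analyses against vehicle.

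Myo1a, the brush border myosin, had 434.4, 450.1 and 410.4 CPM in vehicle and 699.8, 648.6 and 695.8 CPM at 1 μg/kg. Anks4b, part of the complex that links microvilli, had 116, 109.8 and 104.5 CPM in vehicle and 175, 164.7 and 179 CPM at 1 μg/kg. Both rose, by log2 values of 0.66 ± 0.12 and 0.65 ± 0.14, with every treated mouse above all 15 mice at lower doses. Vil1, the microvillar villin and the epithelium marker with the largest value, had a log2 fold change of 0.36 ± 0.09 and was not called (edgeR adjusted p = 0.107). In all, 8 of the 9 epithelium markers were higher (median 0.21), with 0 called by edgeR or DESeq2 and 4 at an unadjusted p under 0.05.

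Slc2a5, the fructose transporter GLUT5, had 1.67, 2.95 and 3.14 CPM in vehicle and 8.40, 5.44 and 10.8 CPM at 1 μg/kg, a 3.18-fold rise (log2 fold change 1.67 ± 0.35, edgeR adjusted p = 0.0374). The groups were apart at these low levels. The 7 small intestine markers, which do not include Slc2a5, had a summed level of 42.5 to 51.7 CPM in vehicle and 56.0 to 83.6 CPM at 1 μg/kg, and the 12 mice at lower doses had 32.7 to 89.9 CPM. Of these markers 6 were higher, with a median log2 fold change of 1.27 (0.74 against the lower doses, and 0.69 without mouse 14), and 0 were called by edgeR or DESeq2 (2 at an unadjusted p under 0.05). Fabp1, a fatty acid carrier, had a log2 fold change of 2.76 ± 0.91 (edgeR adjusted p = 0.270) and Fabp6, the ileal bile acid carrier, -0.80 ± 0.62. The part of this difference in Slc2a5 was not tested.

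Epha1, an ephrin receptor gene, had 28.1, 32.99 and 31.6 CPM in vehicle and 52.4, 59.1 and 62.4 CPM at 1 μg/kg (log2 fold change 0.91 ± 0.15, edgeR adjusted p = 0.00628). Mpzl2, an epithelial adhesion gene, had 48.0, 50.5 and 49.1 CPM in vehicle and 83.3, 70.2 and 69.2 CPM at 1 μg/kg (log2 fold change 0.59 ± 0.11, edgeR adjusted p = 0.0107). Cyp4f14, a fatty acid hydroxylase gene, had 125.8, 164.4 and 124.7 CPM in vehicle and 228, 249.9 and 268 CPM at 1 μg/kg (log2 fold change 0.85 ± 0.18, edgeR adjusted p = 0.0352). In these 3 genes no treated mouse fell within the range of the 15 mice at lower doses. The other genes that rose were Ccdc116 (log2 fold change 1.12), the unnamed gene ENSMUSG00000085214 (1.17), Slc16a5, a monocarboxylate transporter gene (0.73), 2310007B03Rik (0.72), Lnx1, a ubiquitin ligase gene (0.72), and Ank3, encoding ankyrin G (0.64).

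Cldn8, a claudin of tight junctions, had 110.7, 75.5 and 74.8 CPM in vehicle and 31.5, 34.5 and 26.8 CPM in mice 41, 43 and 44. It fell 2.81-fold (log2 fold change -1.49 ± 0.32, SE, edgeR adjusted p = 0.0412), with every treated mouse under every vehicle mouse. Lonrf3 had 19.97, 16.9 and 13.6 CPM in vehicle and 3.88, 7.22 and 8.04 CPM at 1 μg/kg, a log2 fold change of -1.41 ± 0.27 (edgeR adjusted p = 0.0228). Mouse 41 was lowest in this gene. The other falls were small. Zfand5, a zinc finger gene, changed by -0.77, Leo1, of the PAF1 elongation complex, by -0.73, Macf1, a linker of actin and microtubules, by -0.60, and Hist1h3e, encoding a histone H3, by -0.69. Hist1h3e has near-identical copies, so its count is uncertain. Among 14 alternative analyses, Macf1 was not called in 11, Leo1 and Hist1h3e in 9 each, and Zfand5 in 6.

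**Figure D4:**
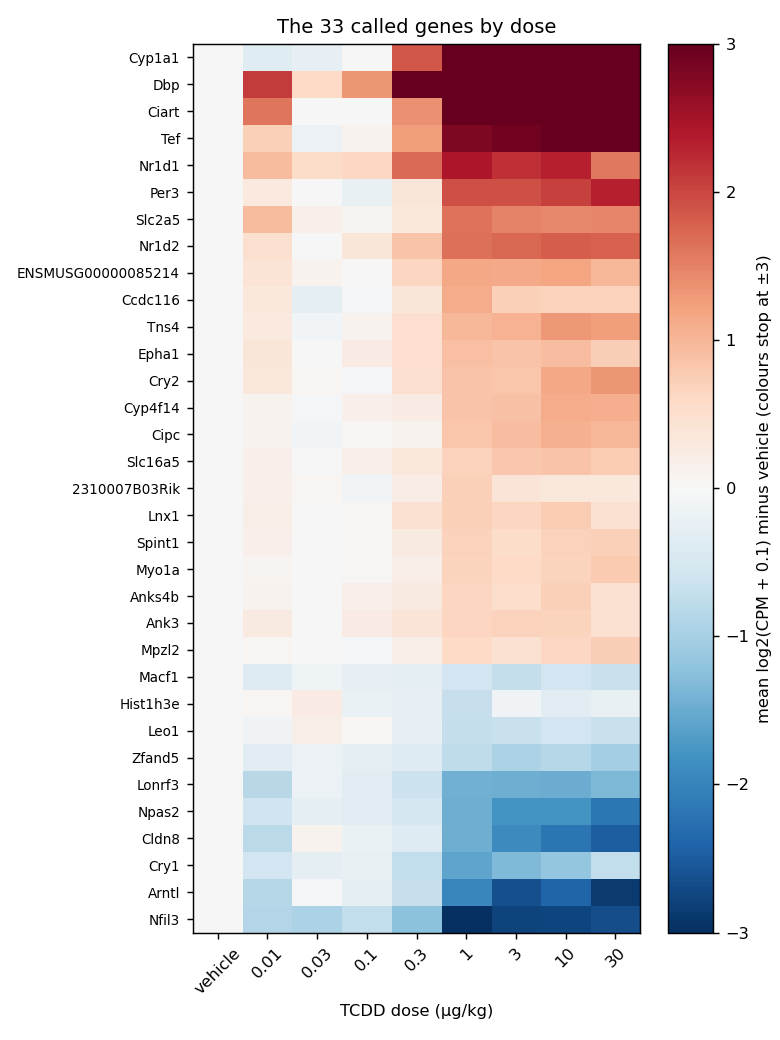
Mean log2(CPM + 0.1) of the 33 called genes at each dose minus vehicle, with 1 row per gene ordered by the change at 1 μg/kg, red for higher and blue for lower, and colours that stop at ±3. The columns at 3, 10 and 30 μg/kg resemble that at 1 μg/kg for most genes, and the 0.01 μg/kg column includes mouse 14.

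Against the 12 mice at the 4 lower doses, which share the treated mice with the comparison above but not the vehicle mice, 96 genes were called (0.582%), 50 higher (0.303%) and 46 lower (0.279%). Of the 33 genes 24 were called again in the same direction and 9 were not, and all 33 had a smaller change in size than against vehicle. All 9 were under the 1.5-fold cut. With mouse 14 and without it, Myo1a had 0.57 and 0.62, Spint1 0.56 and 0.59, Slc16a5 0.55 and 0.60, and Lnx1 0.53 and 0.60, and these were called without it. Mpzl2 had 0.54 and 0.56, Anks4b 0.51 and 0.56, Zfand5 -0.49 and -0.55, Ank3 0.40 and 0.46, and Macf1 -0.33 and -0.36. Without mouse 14, 28 were called again and 30 had a smaller change than against vehicle, all but Per3, Cipc and Leo1. For Dbp the log2 fold change was 2.98 against the lower doses and 5.18 against vehicle, for Tef 2.16 and 2.82, for Nfil3 -2.34 and -3.18, and for Cyp1a1 5.85 and 6.19. Without mouse 14 the values against the lower doses were 3.74 for Dbp, 2.57 for Tef, -2.46 for Nfil3 and 5.74 for Cyp1a1. The genes Per2 (1.30), Hlf (1.85) and Usp2 (0.85), which edgeR did not call against vehicle, were called by it against the lower doses, and also without mouse 14 (1.57, 2.02 and 0.94). The clock repressors Per1 (0.77), Bhlhe40 (0.54) and Bhlhe41 (1.44) were called only with mouse 14 left out (0.98, 0.59 and 1.67), so that 7 of the 10 repressors were called with it and 10 without it. Without mouse 14 the number called rose to 151 (92 higher, 59 lower), and without mouse 43 or 44 it was 40 or 23, with 5 falls in either case.

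Of the 96 genes 72 were not among the 33, with 34 higher and 38 lower. Of all 46 genes that fell against the lower doses, 13 were histone genes, and the limit given for the count of Hist1h3e may hold for such genes. All 96 genes were called again without mouse 14. Top2a, a topoisomerase gene of the cell cycle list, was among the falls (log2 fold change -0.59, and -0.60 without mouse 14). Against vehicle, 15 of the 16 cell cycle genes were lower, with a median log2 fold change of -0.28 (-0.41 against the lower doses, and -0.45 without mouse 14) and 0 called by edgeR or DESeq2 (4 at an unadjusted p under 0.05), and the lowest was Mki67 (-0.52 ± 0.23, edgeR adjusted p = 0.465). In mouse 41 alone against vehicle the median of this list was -0.07. Of the 12 interferon-stimulated genes 2 were called against the lower doses, against 0.582% of all genes tested. Without mouse 14, 3 were called (adding Mx1, at 0.75 against 0.64 with it), against 151 of all 16496 genes. The list median was 0.46 (0.42 without mouse 14) against 0.12 in the comparison with vehicle. Isg15, a ubiquitin-like protein gene, had 5.41, 4.01 and 3.93 CPM in vehicle and 8.79, 9.22 and 7.85 CPM at 1 μg/kg. It was called against the lower doses (log2 fold change 1.05, edgeR adjusted p = 0.00757, and 1.04 without mouse 14) and not against vehicle (0.95, edgeR adjusted p = 0.182). Oasl2, an OAS-like gene, had a log2 fold change of 0.90 against the lower doses (edgeR adjusted p = 0.0197, and 0.89 without mouse 14) and 0.53 against vehicle (edgeR adjusted p = 0.524).

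Since mouse 41 shares its index set with vehicle and mice 43 and 44 do not, mouse 41 was compared with vehicle by adding a term for the index set. With this single treated mouse, which was assumed to vary like the other groups, 12 genes were called (0.0727%, 11 higher and 1 lower), 9 of them among the 33. Mouse 41 was among the mice that chose the 33 genes, so its folds are a description, and 32 of the 33 had a fold of at least 1.5, with a median absolute log2 fold change of 1.06 against 1.02 over all 3 treated mice. The 9 were Cyp1a1, Dbp, Tef, Nr1d1, Nr1d2, Tns4, Spint1, Mpzl2 and Lonrf3. The other 3 were Hlf (log2 fold change 3.34), Bhlhe41 (3.35) and the immunoglobulin gene Igkv5-43 (4.02). Between mice 43 and 44 and mouse 41, 0 genes (0%) were called by edgeR and 0 by DESeq2, with 1424 genes (8.63%) at an unadjusted p under 0.05 in edgeR, and without a filter on low counts 15 were called.

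**Figure D5:**
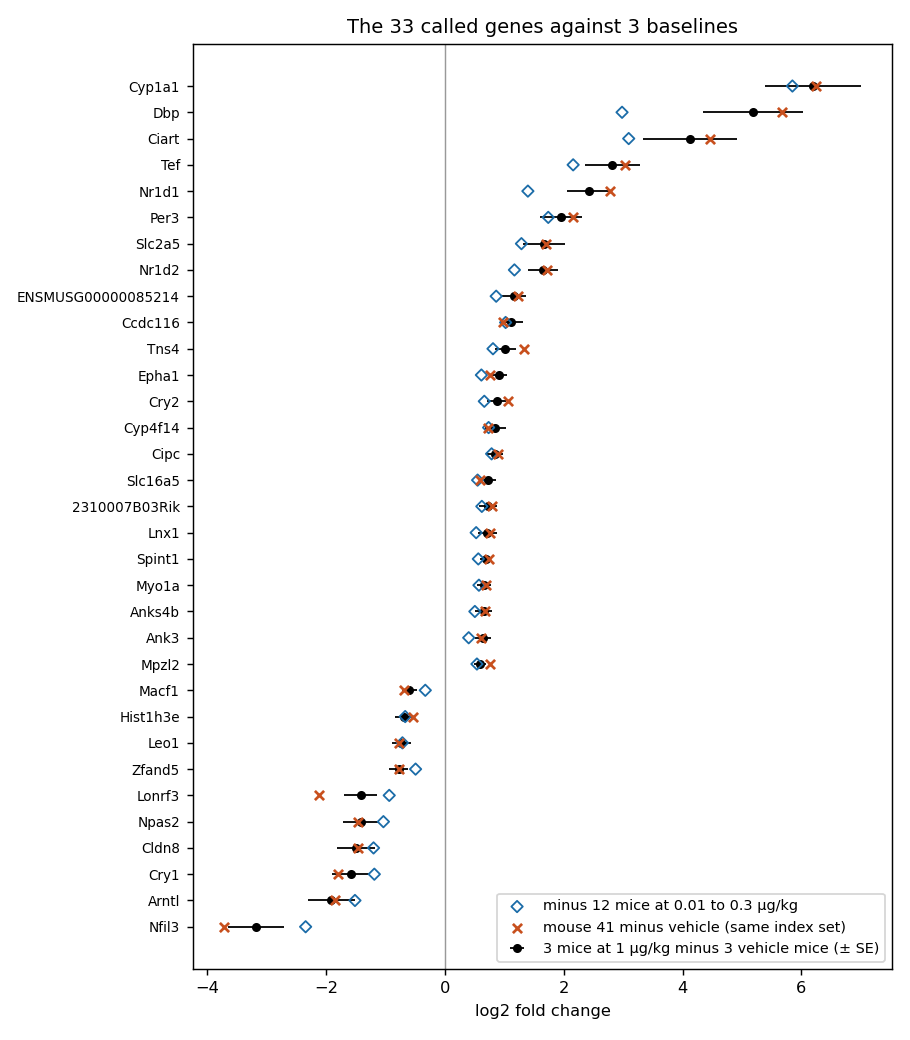
Log2 fold changes of the 33 called genes at 1 μg/kg against 3 vehicle mice (black, bars ± SE), against 12 mice at lower doses (blue diamonds), and of mouse 41 alone against vehicle within the first index set (orange crosses). Each blue value lies nearer to 0 than the black one with mouse 14 among the lower doses.

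Smooth muscle genes were highest in mouse 41 among the 6 mice. The 8 smooth muscle markers had a summed level of 151 to 177 CPM in vehicle and 140 to 444 CPM at 1 μg/kg, and the 12 mice at lower doses had 143 to 490.5 CPM. Of these markers 0 were called by edgeR or DESeq2 or had an unadjusted p under 0.05. Actg2, a smooth muscle actin, had 5.90, 3.69 and 2.36 CPM in vehicle and 28.9 CPM in mouse 41, but 1.22 and 0.497 CPM in mice 43 and 44. The median log2 fold change of these markers was 0.90 over the 3 mice and 2.25 in mouse 41 alone, and -0.14 against the lower doses (-0.23 without mouse 14). With mouse 41 left out 9 genes were called, and all 9 were among the 33.

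Of the lists with tested members, 29 held 0 genes called against vehicle by edgeR or DESeq2, and 42 of their 286 tested genes (14.7%) had an unadjusted p under 0.05, against 9.8% of all genes tested. All 18 cholesterol synthesis and uptake genes were higher, with a median log2 fold change of 0.31. None was called against vehicle, and 7 had an unadjusted p under 0.05. Their summed level was 2065 to 2449 CPM in vehicle and 2506 to 3049 CPM at 1 μg/kg, while the 12 mice at lower doses, at 1852 to 2583 CPM, overlapped the treated mice. Insig1, which restrains sterol synthesis, was called against the lower doses (log2 fold change 0.69, edgeR adjusted p = 0.0172, and 0.71 without mouse 14) and not against vehicle (0.48, edgeR adjusted p = 0.394). Of 8 tested antimicrobial protein genes 7 were lower, with a median of -1.09 against vehicle, -0.39 against the lower doses (-0.30 without mouse 14) and -1.59 in mouse 41 alone against vehicle. Of these Itln1, an intelectin, had the lowest value against vehicle (-1.78 ± 0.70, edgeR adjusted p = 0.367). Mt2, a metallothionein gene among the glucocorticoid response genes, had 102.5, 95.8 and 105.2 CPM in vehicle and 58.6, 11.8 and 45.4 CPM at 1 μg/kg, and its log2 fold change of -1.38 ± 0.41 was not called (edgeR adjusted p = 0.215). Among genes of fatty acid oxidation, Pdk4, which restrains glucose oxidation, had -1.17 ± 0.47 and Ppara, a fatty acid receptor gene, 0.74 ± 0.25, neither of them called. Pdk4 was called with only the 6 mice in the fit (edgeR adjusted p = 0.0232), and against the lower doses once mouse 14 was left out (-1.36, edgeR adjusted p = 0.0482, against -1.26 with it, edgeR adjusted p = 0.115).

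Genes of cobalamin (vitamin B12) uptake and use were among those the study examined, and none of the 14 tested cobalamin genes was called at 1 μg/kg by edgeR or DESeq2, with 2 at an unadjusted p under 0.05. Cubn, the intestinal receptor subunit cubilin, had 18.1, 44.7 and 44.4 CPM in vehicle and 32.7, 29.2 and 49.9 CPM at 1 μg/kg, with the groups overlapping (log2 fold change 0.06 ± 0.48). At 1 μg/kg against vehicle its partner Amn had -0.24 ± 0.45, the lysosomal exporter gene Lmbrd1 0.07 ± 0.09, the efflux transporter gene Abcc1 -0.20 ± 0.09 and the carrier gene Tcn2 -0.05 ± 0.11 (SE, edgeR adjusted p of 0.488 or more for all 5). The 10 tested propionyl-CoA genes had a median of 0.0044 and 0 called by either tool, with 1 at an unadjusted p under 0.05.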

How the data were processed

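Scrapings of colon lining were sequenced from 27 mice, 3 in each of 9 groups. The authors deposited raw counts, 1 table for each mouse with 46078 genes, made with HTSeq 0.6.1. The submitters' processing notes also name TopHat2 2.1.0, SAMtools 1.2.0, Trimmomatic 0.33, FastQC 0.11.3 and GRCm38. Which annotation was counted, and whether by strand, is not given in the sources used here. Counts on lines without a gene name were not used, among them reads with more than 1 alignment, 33.3 to 35.6% of the tables of the 6 mice.

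Genes were kept by filterByExpr (edgeR 4.0.16, R 4.3.3, minimum count 10), library sizes were normalized by TMM, and all 27 mice entered 1 quasi-likelihood fit with 18 residual degrees of freedom. The Benjamini-Hochberg adjustment ran over 16496 genes. Each SE was computed from a log2 fold change and its F value. Log2 CPM used a prior count of 2, while the fitted log2 fold changes kept the default prior count of edgeR. Symbols were matched for 45143 genes. The steps were tested on simulated counts with 200 changed genes, drawn from well-counted genes only. Of these 97% were recovered for 1 μg/kg against vehicle (100% of 4-fold and 94% of 2-fold changes, 16259 genes), with 4 other genes called. Between index sets 78% were recovered (96% of 4-fold and 60% of 2-fold changes), with 6 other genes called. The simulation held no outlying mouse and no colon position effect, so it cannot give the recovery under these or for genes with low counts. No pair of mice in a group differed by less than sampling noise.

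The comparison, the gene lists and the rule for named genes (every called gene, the AhR and clock lists, 5 cobalamin genes, and called or extreme members of other lists, some of which are given only in counts, and 2 of which are not reported here, with Insig1, Oasl2, Mx1, Junb and Top2a added for their call against the lower doses after their values were seen) were chosen with earlier results of these data known. Alternatives were RLE size factors, DESeq2 1.42.0, limma voom (3.58.1, posterior probability of 0.8 or more), genes left unfiltered, only the 6 mice, a term for the index set, a Hox gene score as covariate, an adjusted p alone, and each mouse left out. Leaving out mouse 14 was added after seeing the data. Counting intervals cover counting error only.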

Additional observations from a re-analysis of the deposited data

How the results depend on the processing

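Of the 33 genes called at 1 μg/kg against vehicle, all kept their direction under 14 alternatives. The number called was 73 with DESeq2 (41 higher, 32 lower), 21 with limma voom, 59 with no filter on low counts, 38 with only the 6 mice, 12 with a term for the index set and 60 with the Hox score. With only the 6 mice 25 of the 33 were called. The same 33 genes were among those called by DESeq2 and with no filter. With RLE size factors 31 were called (22 higher, 9 lower). Leaving out 1 of the 6 mice gave 3 to 26 calls. Without vehicle replicate 2, 3 or 4 there were 3, 19 and 7, and without mouse 41, 43 or 44 there were 9, 26 and 11, with fewer samples in each fit. Cyp1a1, Nfil3 and Spint1 were called in each of these 6 fits, while 18 of the 33 genes lost the call in 5 or 6 of them. Limma voom did not call 12 of the 33, among them Cyp1a1, Dbp, Ciart and Nfil3, and the cause was not tested.

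Against the 4 lower doses the 96 calls became 39 with limma voom, 151 with no filter, 271 with an adjusted p alone and 133 with DESeq2 (57 higher, 76 lower). Leaving out 1 of the 3 treated mice or mouse 14 gave 23 to 151, the highest without mouse 14. Between index sets the 0 calls became 15 with no filter. At 3 against 1 μg/kg the 4 calls became 10 with DESeq2 and 8 with no filter, and 2 to 4 with 1 mouse left out (2 without mouse 43, 44, 51 or 52). At 30 against 1 μg/kg the 293 calls became 452 with an adjusted p alone, and 123 to 424 with 1 mouse left out (123 without mouse 44, 135 without mouse 43, 424 without mouse 41, 137 without mouse 67).

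Among the uncalled genes whose values are given in the text, Cubn turned to -0.13 and Mx1 to -0.018 with the index set term, and Actg2 to -0.20 with limma voom. With 1 mouse left out the log2 fold change crossed 0 for Cubn (-0.26 to 0.25), Amn (-0.56 to 0.036), Nqo1 (-0.20 to 0.28), Gsta1 (-0.053 to 0.51), Ugt1a6a (-0.26 to 0.13), Ugt1a6b (-0.25 to 0.053), Ugt1a7c (-0.23 to 0.042), Mx1 (-0.0022 to 0.21) and Actg2 (-2.23 to 1.96). No paired analysis was possible because no mouse number occurs in more than 1 group.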

Other observations

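Lists not described above held no gene called at 1 μg/kg against vehicle. The 8 colonocyte markers had a median log2 fold change of 0.07, the 9 goblet cell markers -0.16, the 13 tested tuft cell markers -0.04, the 10 enteroendocrine cell markers -0.21 and the 7 tested crypt stem cell markers -0.08, with 0 called by edgeR or DESeq2 and 2, 1, 0, 0 and 1 at an unadjusted p under 0.05. The 7 T cell, 6 B and plasma cell and 7 macrophage markers had medians of 0.34, 0.19 and -0.02, and the 6 fibroblast and 5 adipocyte markers -0.26 and 0.28, with 0 members called by either tool or at an unadjusted p under 0.05. The 7 MHC class II genes had a median of -0.18, the 12 interferon-stimulated genes 0.12, the 11 tested immediate early genes 0.25, the 12 heat shock genes 0.11 and the 11 glucocorticoid response genes -0.007, with 0 called by either tool and 1, 1, 2, 2 and 4 at an unadjusted p under 0.05. Against the lower doses the median had the opposite sign for the MHC class II genes (0.17), the adipocyte markers (-0.81), the tuft cell markers (0.0026) and the heat shock genes (-0.0035), and without mouse 14 these values were 0.14, -0.87, 0.01 and -0.0047. Junb, an immediate early gene, was called against the lower doses (log2 fold change 0.67, edgeR adjusted p = 0.00757, and 0.69 without mouse 14) and not against vehicle (0.41, edgeR adjusted p = 0.402).

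The Hox score, the first principal component of 25 Hox genes, whose levels differ along the length of the colon, was 3.56, -0.11 and -1.47 in vehicle mice 2, 3 and 4 and 2.80, -0.97 and -1.57 in mice 41, 43 and 44. The groups overlapped in this score.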
